A study of Mus musculus with 4 samples.

Results

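Tetrahydrobiopterin (BH4) and nitric oxide synthesis was followed through 7 genes, Gch1, Pts, Spr, Qdpr, Gchfr, Nos3 and Nostrin, in single cells isolated from mouse brain vasculature. They were taken by symbol from a list of genes of the pathway. The rule that picked them used no measured level, but the list was drawn up with earlier results of these data known, and all 7 of them were found among the 31053 genes measured. The cells came from wild-type male C57BL/6 mice aged 12 to 14 weeks. Mice in the chronic social defeat (CSD) condition lived for 14 days in the cage of an aggressive CD-1 mouse, behind a partition that was lifted briefly every day. Home cage (HC) mice spent the same 14 days beside a CD-1 mouse from which the partition always kept them apart. Perfused brains were dissociated and enriched with beads that carry an antibody to CD31, and cells of 4 mice were pooled for each 10x Genomics 3′ library, with 2 libraries per condition (CSD 1, CSD 2, HC 1, HC 2). Each library counted as 1 sample, so that differences between the mice of a pool are not seen.

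BH4 is a cofactor that nitric oxide synthases need to turn L-arginine into nitric oxide, and endothelial nitric oxide synthase (eNOS) that lacks it makes superoxide instead. It is built from GTP by the enzymes of Gch1, Pts and Spr in that order, Gch1 encoding the rate-limiting step, and is restored after oxidation by the enzyme of Qdpr. In brain vessels, nitric oxide made by endothelial cells (EC) crosses to the surrounding mural cells, binds soluble guanylate cyclase and relaxes them.

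The 4 libraries held 27297599 to 30361474 UMIs each, and 2553 to 4934 cells per library had at least 500 UMIs and 250 genes and at most 25% mitochondrial UMIs, 14415 in all. Cell barcodes shared by a pair of libraries numbered 0 to 9. Cells were assigned to classes from marker genes, and 1967 cells with markers of more than 1 class and 285 with too few were left out. All EC (4866 cells) included capillary (3097), arterial (523) and venous EC (252) as well as EC that met none of these definitions, and the other classes were microglia (4428), choroid plexus cells (1328), pericytes (390), arterial smooth muscle cells (SMC, 364), astrocytes (322), T cells (107), ependymal cells (86) and fibroblasts (74). Markers kept out of the assignment were highest in their own class for 5 of 5 genes in all EC, 2 of 2 in capillary EC, 3 of 3 each in venous EC, microglia, T cells, pericytes, SMC, fibroblasts and ependymal cells, and 2 of 3 in choroid plexus cells, but for only 1 of 3 in arterial EC and 1 of 3 in astrocytes. The astrocyte class was led by Gria2, Fabp7 and Dclk1, and the venous class by Lcn2, Icam1, Vcam1 and Cxcl1, which are genes of acute inflammation. Levels are UMIs of a gene per 1000000 UMIs of its class in a library (CPM), given as mean ± SD over the 4 libraries. Since reads come from the 3′ end of transcripts, levels are compared between classes and libraries, not between genes.

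Gch1 (ENSMUSG00000037580, chr14:47153895-47189413, GRCm38, minus strand) encodes GTP cyclohydrolase I, the first enzyme of the pathway. In HC it lay between 98.3 and 152 CPM in the 3 EC classes, and in CSD between 249.5 and 292 CPM. Of the other classes only T cells, at 117 ± 61.0 CPM (28 UMIs in 107 cells), overlapped EC, and microglia followed at 27.1 ± 4.44 CPM without overlap with either neighbour. A single UMI was found in 364 SMC and a single one in 74 fibroblasts, and none in 390 pericytes, 322 astrocytes or 86 ependymal cells. In choroid plexus cells, the most deeply sequenced class with 19019096 UMIs, 2 UMIs of Gch1 were counted. The floor of 3 UMIs amounts to between 0.421 and 2.81 CPM per library in choroid plexus cells and to between 16.8 and 49.4 CPM in pericytes, so that far lower levels could be seen in the former. Floors and intervals cover counting error only.

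Gch1 and Nostrin were the pair of members whose CSD libraries lay above the HC libraries in every EC class, and the 250 bases before their RefSeq start sites (GRCm38.p6) are shown for that reason. Of all genes, 16.0% lay so in capillary, 16.8% in arterial and 17.1% in venous EC. The share that did so in every class at once was not counted. Nostrin did not pass a test of CSD against HC in any of these classes. RefSeq promoters were matched for 6 of the 7 members, Nos3 being the one without. Capitals mark every match on either strand to the TATA box (TATAAA), the CCAAT box (CCAAT), the GC box (GGGCGG), the NF-kappaB motif, the glucocorticoid receptor hexamer (AGAACA), the cAMP response element (TGACGTCA), the AP-1 site (TGAGTCA) and the KLF site (CCACACCC). The Gch1 stretch lies at chr14:47189414-47189663 on the minus strand and the Nostrin stretch at chr2:69135550-69135799 on the plus strand.
Gch1: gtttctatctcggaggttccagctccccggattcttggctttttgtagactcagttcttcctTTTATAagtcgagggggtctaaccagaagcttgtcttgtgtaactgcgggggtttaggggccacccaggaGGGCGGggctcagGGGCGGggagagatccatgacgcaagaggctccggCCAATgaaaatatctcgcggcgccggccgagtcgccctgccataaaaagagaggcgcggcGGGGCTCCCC
Nostrin: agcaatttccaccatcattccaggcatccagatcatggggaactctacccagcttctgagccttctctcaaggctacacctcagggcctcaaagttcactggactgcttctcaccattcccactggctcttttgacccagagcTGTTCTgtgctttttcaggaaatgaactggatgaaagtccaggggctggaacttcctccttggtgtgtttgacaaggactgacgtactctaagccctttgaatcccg
The Gch1 promoter held 1 match to the TATA box, which 12.4% of the 32851 promoters of this length hold, 1 CCAAT box (33.8%) and 2 GC boxes (32.7%). Directly before the start site it held 1 NF-kappaB motif (3.90%). The TATA match lay 182 bases before the start and on the opposite strand. No 2 of these matches overlapped. The cAMP response element (1.55% of promoters), the AP-1 site (4.46%) and the KLF site (3.20%) were matched in none of the 6 promoters. Nostrin held 1 glucocorticoid receptor hexamer (16.1%), 101 bases before the start, and no other match. GC boxes were matched in Pts (1), Spr (2), Qdpr (1) and Gchfr (2), and CCAAT boxes in Qdpr (2) and Gchfr (1). A match is a run of letters and not evidence of binding.

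Pts (ENSMUSG00000032067, chr9:50521617-50528724) and Spr (ENSMUSG00000033735, chr6:85130176-85137766) encode 6-pyruvoyltetrahydropterin synthase and sepiapterin reductase, the enzymes that complete BH4. Pts was detected in every class, and its highest levels lay outside EC. It was highest in astrocytes (111 ± 21.7 CPM), ependymal cells (110 ± 39.1 CPM), choroid plexus cells (84.8 ± 8.16 CPM) and microglia (75.3 ± 8.30 CPM), and lower in capillary EC (26.8 ± 4.04 CPM) and venous EC (23.7 ± 6.81 CPM). T cells, arterial EC, SMC and pericytes lay between microglia and capillary EC. In the full order of 11 classes the libraries of each neighbouring pair overlapped. Spr was highest in arterial EC (134 ± 31.4 CPM) and capillary EC (122 ± 9.17 CPM), followed by pericytes (104 ± 20.2 CPM), venous EC (97.8 ± 15.7 CPM) and SMC (87.1 ± 4.77 CPM). Its libraries did not overlap between SMC and choroid plexus cells (60.9 ± 7.57 CPM), and Spr was lowest in microglia (36.3 ± 8.22 CPM) and T cells (30.3 ± 14.5 CPM). Pericytes, SMC and choroid plexus cells thus carried transcripts of the later enzymes with almost none of the first. In pericytes and SMC the mean level of Pts (30.1 and 37.0 CPM) lay below that within free RNA, which was 48.8 to 74.0 CPM. Ttr, which made up 31.1% to 32.7% of UMIs in choroid plexus cells, made up 2.33% to 14.0% in free RNA. It made up 0.123% to 1.28% in pericytes and 0.0255% to 0.517% in SMC. The share of free RNA in these classes was not tested.

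Qdpr (ENSMUSG00000015806, chr5:45434021-45450236), which encodes the dihydropteridine reductase that recycles BH4, was spread over all classes between 31.5 ± 7.70 CPM in SMC and 79.3 ± 12.4 CPM in arterial EC, with overlap of every neighbouring pair. Oligodendrocytes stood far above this range. These numbered only 19 cells and were pooled over libraries, and they held 129 UMIs of Qdpr among 68770, or 1876 CPM (exact Poisson 95% interval 1566 to 2229 CPM). The level was 2075 CPM in 6 cells of CSD 1, 1882 CPM in 8 cells of CSD 2 and 1692 CPM in 4 cells of HC 2, while the only cell of HC 1, with 840 UMIs, held none. Gch1 and Gchfr had 0 UMIs in these cells, where the floor of 3 UMIs stands at 43.6 CPM.

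Gchfr (ENSMUSG00000046814, chr2:119167773-119172390) encodes the feedback regulator protein that lets BH4 inhibit GTP cyclohydrolase I. It was close to 0 in most classes, with 15 UMIs in all EC (1.94 ± 1.47 CPM), 3 in microglia and none in venous EC, T cells, pericytes or fibroblasts. Choroid plexus cells held 59 UMIs (3.03 ± 0.589 CPM). Ependymal cells had the highest level, with 12.5 and 0 CPM in the CSD libraries and 50.1 and 74.3 CPM in the HC libraries, which rests on 15 UMIs in 86 cells and was not tested. The transcript of the feedback regulator was thus close to the limit of detection in the EC, where that of the enzyme was highest.

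Nos3 (ENSMUSG00000028978, chr5:24364810-24384474) encodes eNOS. It was nearly restricted to EC, at 126 ± 19.0 CPM in capillary, 123 ± 34.3 CPM in venous and 110 ± 11.2 CPM in arterial EC, which overlapped one another. The next level was 20.03 ± 6.44 CPM in ependymal cells, followed by 13.1 ± 15.8 CPM in fibroblasts and 11.4 ± 2.10 CPM in choroid plexus cells. Free RNA, read from barcodes of no more than 100 UMIs, carried Nos3 at 10.7 to 18.9 CPM. Nostrin (ENSMUSG00000034738, chr2:69135800-69189330) encodes a protein that binds eNOS and promotes its removal from the plasma membrane. It was highest in capillary EC (609 ± 90.3 CPM) and venous EC (516 ± 84.0 CPM), which overlapped, and lower without overlap in arterial EC (326 ± 71.4 CPM). Pericytes followed at 70.1 ± 56.1 CPM with 29 UMIs, and every other class with at least 10 cells in every library lay at or below 3.95 CPM. The EC markers used for assignment summed to 174 to 364 CPM in pericytes against 18429 to 21599 CPM in EC. Free RNA also carried Pts at 48.8 to 74.0 CPM, Spr at 40.8 to 63.1 CPM and Qdpr at 54.2 to 84.5 CPM, close to or above the levels of these 3 genes in several classes, whereas Gch1 was at 7.55 to 21.4 CPM and Nostrin at 22.4 to 36.5 CPM, far below EC. These are levels within free RNA, and its share of the UMIs of a class was not tested.

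**Figure D1:**
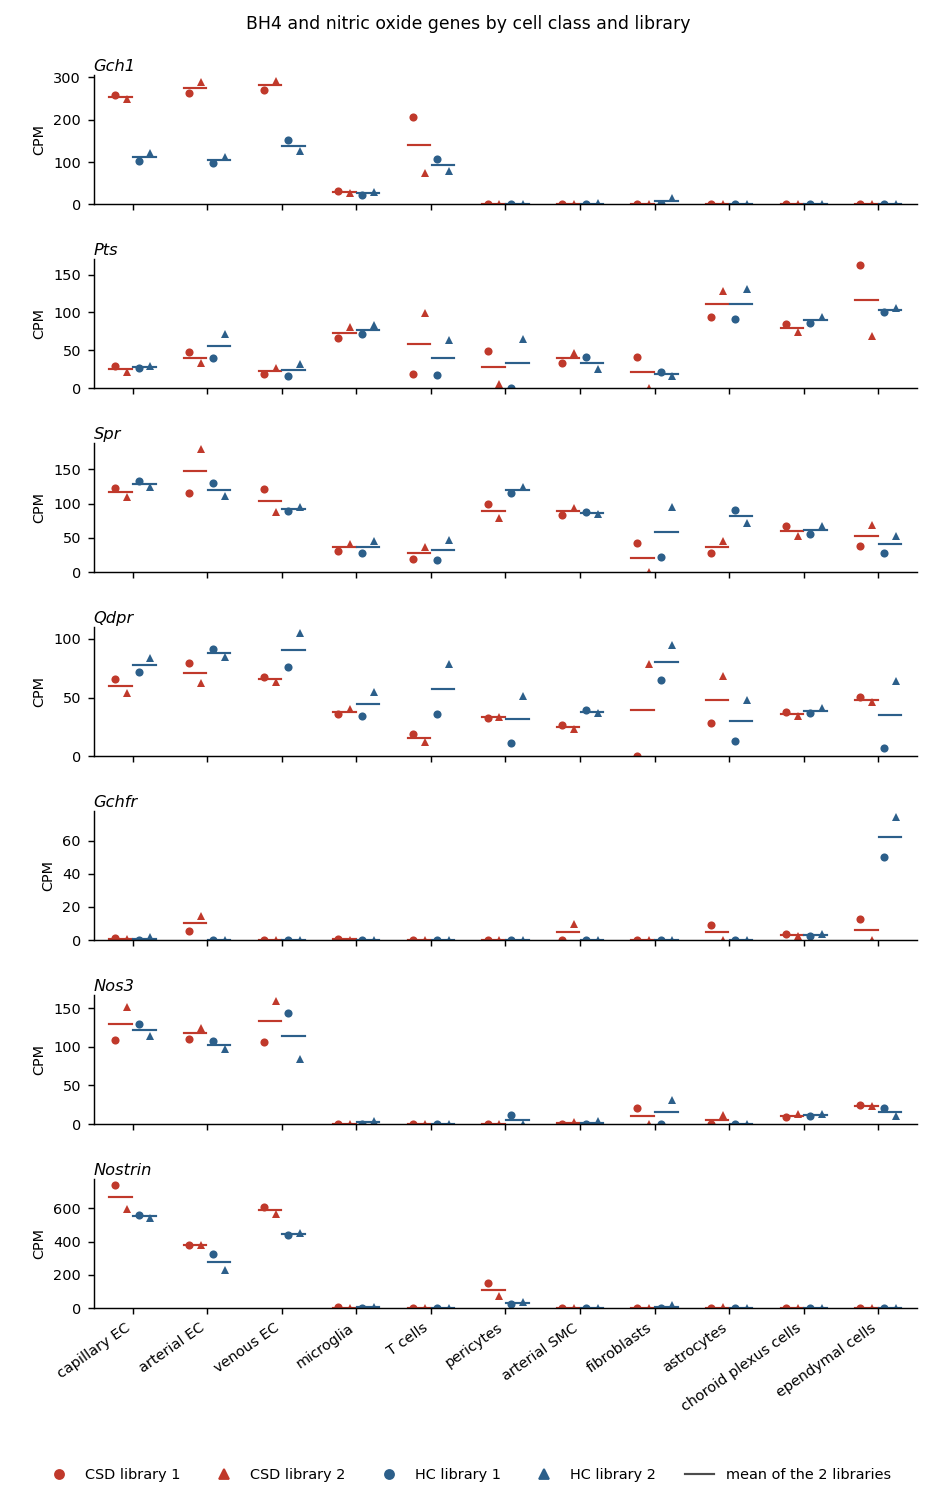
Levels of the 7 genes (CPM, linear axes that start at 0 and differ between genes) in 11 cell classes. Each point is a library, circles and triangles being libraries 1 and 2 of CSD (red) or HC (blue), and bars are means of 2 libraries, with Gch1 high in EC and T cells, Nos3 and Nostrin high in EC, and Pts lowest in venous EC and fibroblasts.

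The genes whose pattern over the 11 classes was most like each member were listed by Pearson's r of log2(CPM + 10) over 7420 genes, as a description. For Gch1 these were Prkch (r = 0.98), a protein kinase C isoform, Gimap1 (0.98) and Sp100 (0.97). For Nos3 they were Lsr (0.99), Abcc4 (0.98) and Cavin2 (0.98), the last a component of caveolae, and for Nostrin they were Arhgef15 (0.99), Unc45b (0.98) and Foxq1 (0.98). Qdpr was closest to Cdh5 (0.97), which encodes VE-cadherin, Spr to Hmg20b (0.96) and Pts to Phgdh (0.90), an enzyme of serine synthesis. Gchfr, which reached 50 CPM in no class, was closest to Epb41l4a (0.98), Ttc21a and Gas8 (both 0.97), the last a component of motile cilia. The 11 points share libraries and depth, and the EC classes share cells of similar type.

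The central comparison asked whether the pathway differed between CSD and HC mice in each class tested. T cells, ependymal cells and fibroblasts were not tested. Gch1 rose in EC with CSD, and it was the only member that passed the test. In capillary EC it lay at 258 and 249.5 CPM in CSD 1 and CSD 2 and at 101 and 122 CPM in HC 1 and HC 2. Both CSD libraries were above both HC libraries, and the libraries within a condition were close to each other. The log2 fold change was 1.21 ± 0.18 (SE; 95% interval 0.83 to 1.59), a 2.32-fold difference, with an adjusted p of 0.000923 by edgeR's quasi-likelihood test over 8566 genes. Of these genes 0.794% passed, and Gch1 was the 1 member called among 6 tested, whose median log2 difference was 0.02 against -0.01 over all genes. The call held under each of 11 alternatives, with a log2 fold change between 1.13 and 1.35. Some of these left 1 library in a condition.

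In arterial EC, Gch1 measured 262 and 290 CPM in CSD and 98.3 and 111 CPM in HC, again without overlap. The log2 fold change was 1.44 ± 0.25 (adjusted p 0.0160, edgeR, 4875 genes of which 0.287% passed). This call was lost without HC 1 (adjusted p 0.138), with 1 more marker required per cell (0.102) and with DESeq2 (0.682), in a range over 11 alternatives of 4.3e-05 to 0.682, while the log2 fold change stayed between 1.33 and 1.5. In venous EC the values were 270 and 292 CPM in CSD and 152 and 126 CPM in HC. The difference of 1.01 ± 0.28 did not pass after adjustment (adjusted p 0.296, edgeR; 0.206% of 3890 genes passed), nor under any of 10 alternatives (adjusted p 0.1 to 0.868). Over all EC together Gch1 lay at 265 and 256 CPM in CSD and 106 and 121 CPM in HC, with a log2 fold change of 1.25 ± 0.15 (adjusted p 0.0265, edgeR; 0.091% of 9886 genes passed). Leaving out HC 1 or HC 2, which leaves 1 library in HC, ended this call, with log2 fold changes of 1.2 and 1.35. The CSD effect on Gch1 did not pass a test of difference between classes, at 0.21 (95% interval -0.33 to 0.75) for arterial minus capillary EC and -0.20 (-0.82 to 0.42) for venous minus capillary EC, in interactions that called 0.0125% and 0% of genes.

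**Figure D2:**
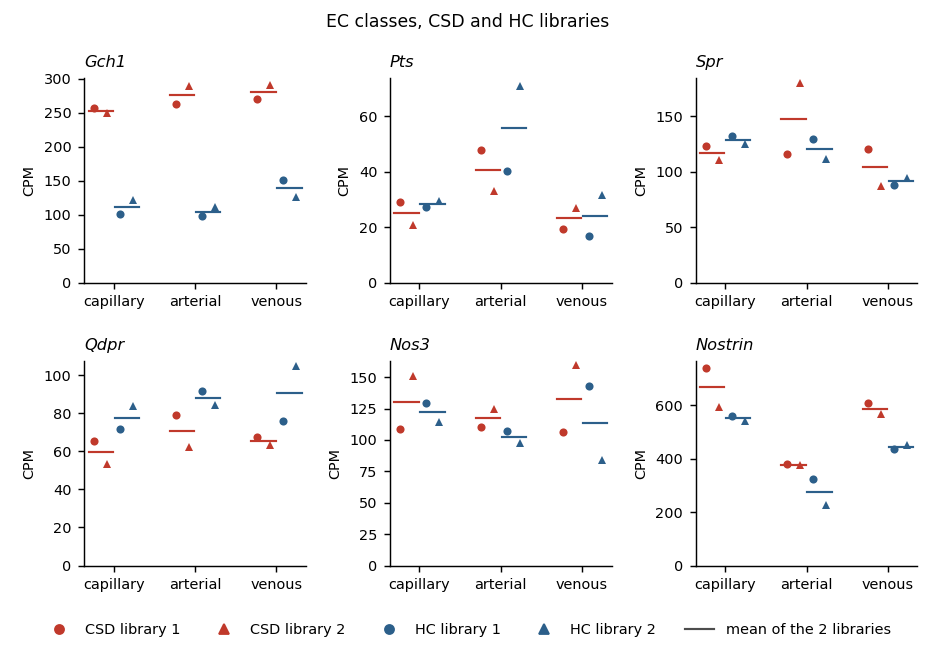
Levels (CPM, axes from 0) of 6 members in capillary, arterial and venous EC. Points are libraries (CSD red, HC blue; circle 1, triangle 2) and bars the mean of 2. Gch1 shows both CSD libraries above both HC libraries in each class, Nostrin the same by a smaller margin, and Qdpr the reverse.

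The share of EC with a transcript of Gch1 was also read. It follows from the level and is not a separate result. A UMI of Gch1 was found in 28.9% and 29.6% of EC in CSD 1 and CSD 2 and in 16.7% and 10.9% in HC 1 and HC 2, at median depths of 1180, 1375, 1437 and 862 UMIs. With every cell thinned to 500 UMIs the shares were 10.5% (exact 95% interval 8.78 to 12.5), 10.6% (8.83 to 12.5), 4.20% (2.99 to 5.72) and 5.08% (4.09 to 6.23). Both thinned CSD shares were above both HC shares. The intervals cover the counting of cells within a library, not the spread between pools, and are no test of CSD against HC. Choroid plexus cells, at a median of 12330 UMIs, held Gch1 in 0.151% of cells before thinning. EC with 2 or more UMIs of Gch1 numbered 89 of 1122 and 100 of 1127 in CSD against 28 of 905 and 30 of 1712 in HC. The 10 cells richest in Gch1 supplied 10.9% to 16.8% of the UMIs of a library. In these pooled libraries a change in which EC were recovered and a change of RNA per cell cannot be told apart.

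The levels of 3 other gene lists are given beside Gch1 in the same EC. The summed level of 14 immediate-early genes was 16464 and 20074 CPM in CSD and 13101 and 13528 CPM in HC. A list of 10 glucocorticoid response genes summed to 3032 and 3221 CPM against 1858 and 1773 CPM, and 10 NF-kappaB and cytokine response genes to 3179 and 3376 CPM against 1838 and 1658 CPM. These sums were higher in both CSD libraries in capillary, arterial and venous EC too. Over all EC, 0 of 14 immediate-early genes tested passed by edgeR, 1 of 9 glucocorticoid response genes (Cdkn1a) and 2 of 7 NF-kappaB and cytokine response genes (Cxcl1 and Vcam1), against 0.091% of all genes. In capillary EC, 2 of 13 immediate-early genes (Fosb and Zfp36) and 3 of 9 glucocorticoid response genes (Cdkn1a, Ddit4 and Tsc22d3) passed. So did 3 of 7 genes of the NF-kappaB list (Icam1, Nfkbia and Vcam1), against 0.794% of all genes. In arterial EC 0, 1 (Cdkn1a) and 0 passed (0.287%), and in venous EC 0, 1 (Cdkn1a) and 2 (Cxcl1 and Vcam1) (0.206%). Over all EC, both CSD libraries lay above both HC libraries for 9, 8 and 6 of the genes tested, against 15.2% of all genes. In capillary EC these counts were 8 of 13, 7 of 9 and 4 of 7 (16.0% of all genes). They were 8 of 13, 5 of 7 and 1 of 6 in arterial EC (16.8%), and 3 of 13, 7 of 9 and 5 of 7 in venous EC (17.1%). In arterial EC 1 gene of the NF-kappaB list lay below HC in both CSD libraries (19.5% of all genes), and no other gene of the lists did so in any EC class. After these data were seen, the level of Gch1 was also read in EC on either side of the median share of each list. In EC at or below the median share of immediate-early genes, Gch1 lay at 237 and 206 CPM in CSD and 91.6 and 121 CPM in HC, a ratio of means of 2.09. Above it the ratio was 2.32. For the glucocorticoid list the ratios were 1.98 at or below and 2.40 above, for the NF-kappaB list 2.26 and 2.22, and for EC at or below and above the median number of UMIs 2.21 and 2.26. In capillary EC alone the ratios at or below and above the median were 1.87 and 2.54 for immediate-early genes and 1.87 and 2.41 for the glucocorticoid list. They were 2.27 and 2.17 for the NF-kappaB list and 2.02 and 2.26 for the number of UMIs. CSD libraries lay above HC libraries in each of the 8 sets of all EC and in each of those of capillary EC. Within these sets the lists were not matched between CSD and HC.

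**Figure D3:**
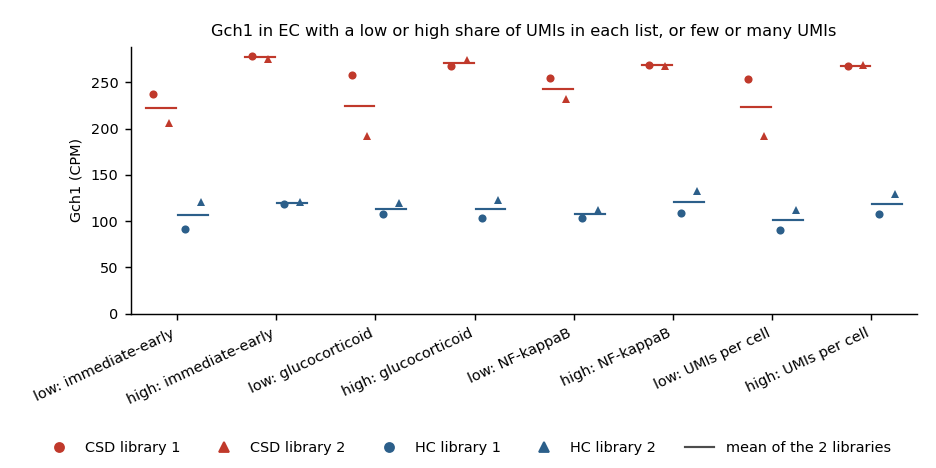
Level of Gch1 (CPM, axis from 0) in EC split at the median share of UMIs in each of 3 gene lists, and at the median number of UMIs per cell. Points are libraries (CSD red, HC blue; circle 1, triangle 2) and bars the mean of 2. CSD lies above HC in all 8 sets, at 192 to 279 CPM against 90.1 to 132 CPM.

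Of the marker lists of 14 other cell types, 2 summed higher in both CSD libraries of all EC and 2 lower, against 15.2% and 24.8% of single genes. The oligodendrocyte list was at 1448 and 1170 CPM in CSD and 798 and 828 CPM in HC, nearly all of it Mal, at 1418, 1146, 782 and 791 CPM, and Mog, a defining marker, was at or below 0.556 CPM. Mal was also among the 10 leading genes of all EC against the other classes used, which leave out oligodendrocytes. The neutrophil and monocyte list was at 13.9 and 5.82 CPM against 4.42 and 2.74 CPM. SMC markers were lower in CSD (192 and 95.5 CPM against 197 and 232 CPM), as was the T cell list, at 0 in both CSD libraries and at 1.11 and 2.19 CPM in HC. The floor of 3 UMIs stands at 1.66 and 1.64 CPM in HC 1 and HC 2, so the T cell list lay close to it. In arterial EC 4 lists summed higher in both CSD libraries and 0 lower, against 16.8% and 19.5% of single genes. The 4 lists were the microglia list (102 and 98.97 CPM against 60.3 and 97.7 CPM), border-associated macrophages (84.7 and 84.3 CPM against 69.2 and 22.2 CPM), neutrophils and monocytes (48.0 and 3.67 CPM against 0 and 0) and oligodendrocytes (1707 and 1169 CPM against 947 and 928 CPM). The 7 markers that assign arterial EC were themselves lower there in CSD, at 4518 and 3141 CPM against 4928 and 7405 CPM. In capillary EC 2 lists were higher and 2 lower (16.0% and 22.8% of single genes), and in venous EC 2 higher and 0 lower (17.1% and 19.4%). The part of these lists in the Gch1 result was not tested. Free RNA held Gch1 at 19.2 and 21.4 CPM in CSD and 7.55 and 8.80 CPM in HC, in each library far below its level in EC.

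The members after Gch1 did not pass the test in EC. Over all EC, 2 of the 6 members tested had both CSD libraries above both HC libraries (15.2% of all genes did) and 2 had them below (24.8%). In capillary EC these were 2 and 2 of 6 (16.0% and 22.8% of genes), in arterial EC 3 and 1 of 6 (16.8% and 19.5%) and in venous EC 2 and 1 of 5 (17.1% and 19.4%). Nostrin was above, at 641 and 555 CPM in CSD and 452 and 466 CPM in HC, a log2 difference of 0.43 (95% interval 0.08 to 0.78, adjusted p 0.472, edgeR) whose unadjusted p was below 0.05. Its CSD libraries were higher also in capillary EC (741 and 594 against 560 and 543 CPM), arterial EC (378 and 378 against 324 and 226 CPM) and venous EC (608 and 566 against 438 and 452 CPM). The log2 difference was 0.31, 0.46 and 0.43, and none of the 3 passed (adjusted p 0.641, 0.710 and 0.779). Without CSD 2, which leaves 1 library in CSD, the log2 difference of Nostrin over all EC was 0.57. In pericytes, where too few UMIs were counted for the test, Nostrin lay at 148 and 72.8 CPM in CSD and 23.2 and 36.4 CPM in HC. The class held only 60751 and 178564 UMIs in CSD 1 and CSD 2 and 86202 and 137284 in HC 1 and HC 2. The level in HC 1 lay below the floor of 3 UMIs. These levels rest on few UMIs, and no share of all pericyte genes stands beside them, so nothing is concluded about CSD.

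Nos3 overlapped between conditions over all EC (106 and 145 CPM in CSD, 124 and 107 CPM in HC), with a log2 difference of 0.17 and a 95% interval of -0.26 to 0.59. This interval leaves out a change in Nos3 as large as that of Gch1. In arterial EC both CSD libraries of Nos3 were just above HC (110 and 125 against 107 and 97.7 CPM), by a log2 difference of 0.20 (-0.36 to 0.77). Qdpr was lower in both CSD libraries of every EC class, at 70.6 and 58.7 CPM in CSD and 75.7 and 82.2 CPM in HC over all EC, and the log2 difference of -0.24 (95% interval -0.63 to 0.14) did not pass. Spr was lower in both CSD libraries over all EC by a small margin (116 and 116 CPM in CSD, 121 and 127 CPM in HC), a log2 difference of -0.05 (-0.38 to 0.28) that did not pass either. Pts overlapped (35.04 and 22.8 CPM in CSD, 29.9 and 38.4 CPM in HC), with a log2 difference of -0.20 (-0.79 to 0.40). Gchfr had too few UMIs for the test in EC.

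In the classes tested outside EC, no member passed by edgeR or DESeq2, and none reached an unadjusted p below 0.05. T cells, the class outside EC with at least 10 cells per library whose Gch1 level overlapped EC, were not among them. Gch1 in microglia was 31.3 and 25.6 CPM in CSD and 21.5 and 29.9 CPM in HC, a log2 difference of 0.18 (95% interval -0.43 to 0.79) that overlapped between conditions. Over microglia 0 of 9924 genes passed (0%), 133 had an unadjusted p below 0.05 and DESeq2 called 1. The CSD libraries of none of the 5 members tested lay wholly above or below HC, against 8.08% and 13.8% of genes. In choroid plexus cells 5 members were tested against a background of 0.0836%, and 0 had both CSD libraries above HC (15.3% of genes) and 1 below (13.8%). This was Pts, which was lower in both CSD libraries (85.3 and 74.0 CPM) than in HC (85.95 and 93.9 CPM), with a log2 difference of -0.17 (-0.52 to 0.18). In SMC 3 members were tested (background 0%, with 124 of 4713 genes at an unadjusted p below 0.05 and 0 by DESeq2), 0 with both CSD libraries above HC (17.8% of genes) and 1 below (12.7%). This was Qdpr, which lay at 26.4 and 23.5 CPM in CSD and 39.3 and 36.7 CPM in HC, with a log2 difference of -0.62 (-1.51 to 0.27). Spr alone was tested in pericytes (-0.47, interval -1.41 to 0.47, background 0.0475%; lower in both CSD libraries, as were 21.9% of genes) and Pts alone in astrocytes (0.01, interval -1.15 to 1.18, background 0%).

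**Figure D4:**
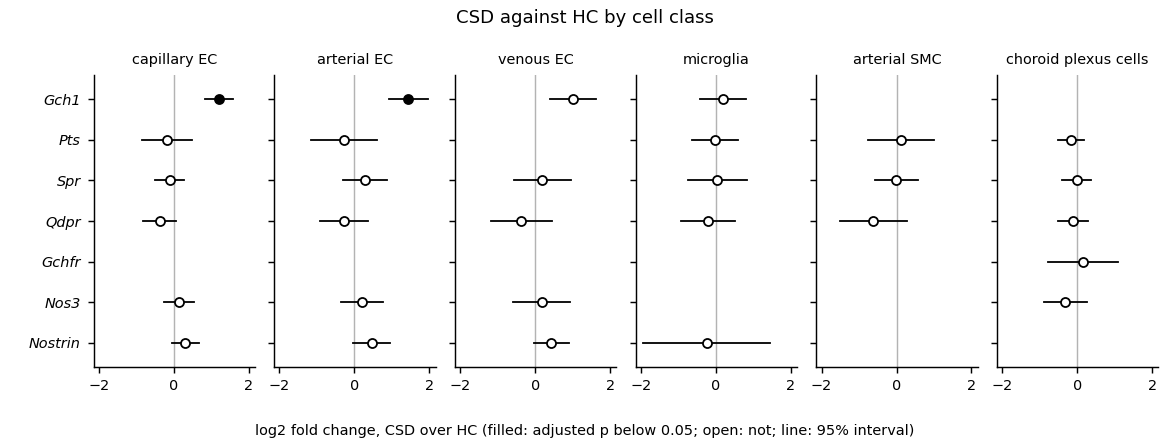
Log2 fold change of CSD over HC for each member with enough UMIs to be tested, in 6 cell classes. Points are edgeR estimates, filled where the adjusted p was below 0.05, and lines are 95% intervals. Gch1 in capillary and arterial EC carries the filled points, at 1.21 and 1.44, and each other interval except that of Gch1 in venous EC crosses 0.

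EC classes were compared within libraries, which served as blocks, in the 6 members with enough UMIs. Between arterial and capillary EC 2 members passed, against 15.7% of 7103 genes, 1 of them higher (8.55%) and 1 lower (7.19%). Nostrin fell by 0.85 on the log2 scale in arterial EC (SE 0.10, adjusted p 1.46e-14, edgeR) and was lower there in 4 of 4 libraries. Pts was higher, at 48.0, 33.0, 40.2 and 71.0 CPM in arterial EC of CSD 1, CSD 2, HC 1 and HC 2 against 29.3, 20.9, 27.3 and 29.6 CPM in capillary EC. It rose by 0.84 on the log2 scale (SE 0.25, adjusted p 0.00789), a call that rests on HC 2, without which the value was 0.66 with an adjusted p of 0.128 (range over 8 alternatives 0.00711 to 0.128). Gch1, Nos3, Spr and Qdpr did not differ past the threshold, with intervals of -0.16 to 0.34 for Gch1 and -0.46 to 0.14 for Nos3. Between venous and capillary EC no member passed by edgeR (7.96% of 6782 genes did), and 1, Nostrin, had an unadjusted p below 0.05 (-0.20, adjusted p 0.2504).

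The rest of the pathway was followed in 42 genes of 5 lists, in the classes with at least 10 cells in every library. Neurons (22 cells) fell short of this, and these genes were not read in them. Nos3 was highest in EC, while the subunits of the nitric oxide receptor were higher in pericytes and SMC than in capillary EC. Pericytes and SMC were not tested against EC. Gucy1a1 and Gucy1b1, the subunits of soluble guanylate cyclase, were at 330 and 680 CPM in pericytes and 290 and 238 CPM in SMC, and at 3.75 and 5.86 CPM in capillary EC. Pde3a, which degrades cGMP and cAMP, reached 427 CPM in SMC against 3.49 CPM in capillary EC. Slc7a1, the cationic amino acid transporter that brings arginine into cells, was at 589 CPM in capillary EC and at 19.4 CPM in SMC. Nos1 and Nos2, the neuronal and inducible synthases, were near 0 in most of the classes read. Among these classes, Nos1 was highest in arterial EC (21.97 CPM) and Nos2 in venous EC (13.1 CPM). Th, Tph1 and Tph2, amino acid hydroxylases that also use BH4, lay at or below 2.34 CPM in all classes read, which leave out neurons.

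**Figure D5:**
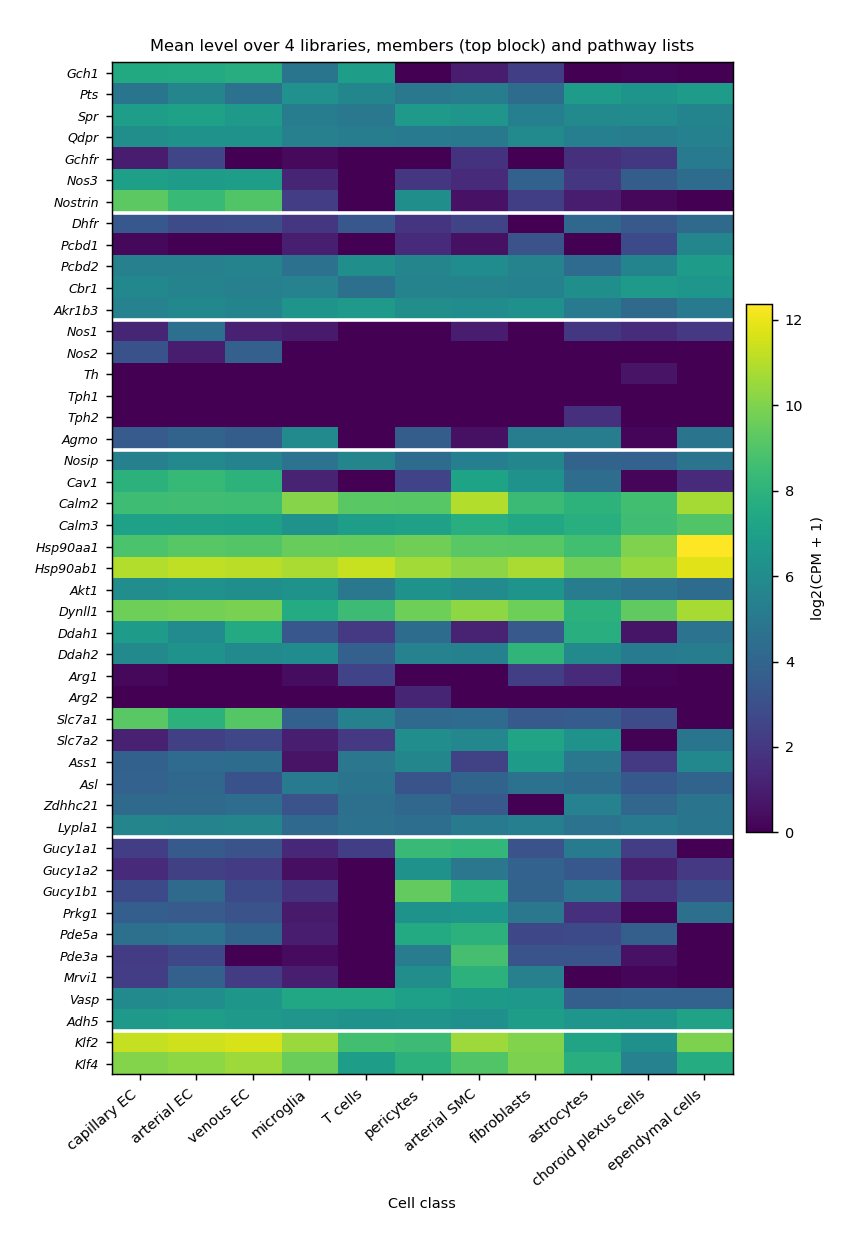
Mean level over 4 libraries, as log2(CPM + 1), of the 7 members (top block) and of 40 pathway genes in 11 classes, to be read along each row. White lines part the members, BH4 synthesis and salvage, enzymes that use BH4, partners and substrate supply of eNOS, the nitric oxide receptor and cGMP genes, and 2 transcription factors. Nos3 and Nostrin are brightest in EC, and Gucy1a1 and Gucy1b1 in pericytes and SMC.

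Between CSD and HC none of the 42 genes passed in any of the 9 classes tested by edgeR. In capillary EC 26 were tested, 6 had an unadjusted p below 0.05 (9.23% of all genes did) and DESeq2 called 1, Hsp90aa1 (log2 difference 0.81, adjusted p 0.0354), whose product is a chaperone that activates eNOS. By edgeR Hsp90aa1 differed by 0.79 (adjusted p 0.0685). Klf2 and Klf4, factors that respond to shear stress and drive Nos3, differed by 0.59 and 0.48 (adjusted p 0.239 and 0.268). The median log2 difference of the 26 genes was 0.10, against -0.01 over all genes tested. In all EC 33 genes were tested, 3 of them with an unadjusted p below 0.05 (8.51% of all genes). In arterial EC these counts were 20 and 4 (7.2%), in venous EC 19 and 1 (6.94%), in microglia 22 and 0 (1.34%) and in pericytes 15 and 3 (5.65%). They were 26 and 2 in SMC (2.63%), 27 and 2 in choroid plexus cells (3.41%) and 9 and 0 in astrocytes (1.4%), and DESeq2 called 0 of the lists' genes in each of these 8 classes.

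Between EC classes some genes of the lists passed. Of 22 genes tested 6 were higher and 2 lower in arterial than in capillary EC, where 8.55% of all genes were higher and 7.19% lower. Among the higher genes were Cav1 (0.39, adjusted p 0.00379, edgeR), whose product caveolin-1 restrains eNOS, Hsp90aa1 (0.37), Hsp90ab1 (0.29), Klf4 (0.21) and Klf2 (0.19). The lower genes were Slc7a1 (-1.20), from 589 CPM in capillary to 249 CPM in arterial EC, and Ddah1 (-0.76), which encodes an enzyme that removes an endogenous inhibitor of the synthases. In venous against capillary EC 3 of 22 were higher, Ddah1 (0.80), Klf4 (0.46) and Klf2 (0.31), and 0 were lower, against 4.92% and 3.04% of all genes. Neither interaction of class and condition called a gene of the lists by edgeR, with 0 of 28 and 3 of 24 genes at an unadjusted p below 0.05 (4.96% and 4.28% of all genes).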

How the data were processed

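Single-cell RNA-seq was measured in 4 libraries, and for each the authors deposited a matrix of raw UMI counts that Cell Ranger had produced, covering all barcodes and not normalized. The submitters' processing notes name version 4.0 with GRCm38/mm10, and the matrix headers 3.1.0. The paper names a later version than either. Cells were kept by UMIs, genes and mitochondrial share and assigned to the class with the largest share of its markers detected (at least 2 markers, the next class at no more than 0.5 of that share). EC classes also needed 2 markers of their own and at most 1 of another, capillary markers aside. Classes with at least 10 cells in every library were used, and the other classes were pooled over libraries. Of the classes used, T cells, ependymal cells and fibroblasts were not tested between CSD and HC. UMI counts were summed per class and library and tested with edgeR 4.0.16 (R 4.3.3; filterByExpr, TMM, glmQLFit, glmQLFTest), as a two-sided test whose p-values were adjusted by Benjamini-Hochberg across the genes of each comparison, with a threshold of 0.05. A further filter of the study on cell complexity was not applied, and no doublet caller was run. Comparisons of EC classes had the library as a block. DESeq2 1.42.0, other scaling, filters and left-out libraries were alternatives, and the scripts were tested on simulated data. Shares have exact (Clopper-Pearson) 95% intervals and used seed 1 for thinning. Gene positions are from GENCODE (GRCm38), matched by identifier. The 7 members, the marker lists and the pathway lists were chosen with earlier results of these data known. Results of 2 genes of the pathway lists are counted but not reported here. The text names all members, and of the pathway lists the nitric oxide synthases, the genes called in a class and genes named for their place in the pathway after their levels were seen. Splitting EC by list share was added after the data were seen.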

Additional observations from a re-analysis of the deposited data

How the results depend on the processing

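The number of members called was the same in 121 of 128 alternatives over 13 comparisons. It was 1 in all EC and lay between 0 and 2 when 1 library was left out, 1 in arterial EC and 0 with 1 more marker, 0 with DESeq2 and between 0 and 1 with a library left out, and 2 for arterial against capillary EC and between 1 and 2 with a library left out. Leaving out a library changed the number in no other comparison. No called value changed sign. The cause of these changes was not tested.

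The count of all genes called depended far more on the setting. Without a filter on low counts it was 244 against 9 in all EC, 163 against 68 in capillary EC, 55 against 14 in arterial EC and 56 against 8 in venous EC. DESeq2 called 71, 51, 4 and 18 in these 4 comparisons. With a library left out the count ranged from 6 to 541 in all EC, from 31 to 361 in capillary EC, from 15 to 77 in arterial EC and from 0 to 35 in venous EC. In the classes tested outside EC it was at most 9 and at most 34 under any alternative. Between EC classes it stayed within 796 to 1118 for arterial and 367 to 540 for venous against capillary EC. In arterial EC 12 genes were called higher and 2 lower, and 9 and 3 with class totals in place of TMM, a scaling added after the data were seen. Requiring 1 more marker was not run for the 3 venous comparisons, which left under 10 cells in a library.

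Replicate numbers are shared between CSD and HC, but no label says that they mark a pair. Deviations of libraries with the same number correlated at r = 0.05 over genes in all EC and 0.01 in capillary EC, and at 0.42 in microglia. With the replicate number as a block, 1 member was called in all EC, 1 in capillary EC, 1 in arterial EC and 0 in venous EC, as without it, and 112, 182, 72 and 26 genes in all.

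Depth limits pericytes and astrocytes, where 1 member in each had enough UMIs to be tested. In SMC 3 members had enough, and in choroid plexus cells 5. Choroid plexus cells were the most deeply sequenced class, and the members untested there, Gch1 and Nostrin, lay at 0.088 and 0.20 CPM. With 2 libraries of pooled mice per condition, the spread between pools of 1 gene is poorly known. The p-values of edgeR therefore also draw on the spread of other genes. Where a library was left out, 1 condition held a single library and showed no spread of its own. Counts of 0 bound a level only as far as the class was sequenced.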
